A study of Mus musculus with 61 samples.

Results

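Immunity-related GTPases and the very large inducible GTPase Gvin1 were described in the liver of 8 inbred mouse strains. The rows were chosen by gene symbol, and all 6 symbols (Irgm1, Irgm2, Igtp, Iigp1, Tgtp1 and Gvin1) were found among the 18754 genes of the count table. The strains are the founders of the Diversity Outbred stock, an outbred mouse population: strain-129 (n = 8 libraries), AJ (n = 6), B6 (n = 7), NOD (n = 8), NZO (n = 8), WSB (n = 8), Cast (n = 7) and PWK (n = 8). All mice were given a high-fat, high-sugar diet, with 45 percent fat per the labels, and no untreated, infected or interferon-treated group was among the samples. The labels give neither age nor sex and do not say that each library is a separate mouse, so p-values measure the spread between these libraries. Each library is polyadenylated RNA of whole liver, in which fewer cells of a type and less RNA per cell cannot be told apart.

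Immunity-related GTPases are small GTP-binding proteins that interferon-gamma induces in many mouse cells. The effector proteins among them, such as those of Iigp1 (Irga6) and Tgtp1 (Irgb6), bind to the membrane of vacuoles that hold Toxoplasma gondii and other intracellular microbes and help to break them open. The regulators, Irgm1, Irgm2 and Igtp (Irgm3), sit on the cell's own membranes and hold the effectors in the inactive, GDP-bound form. Gvin1 encodes a member of a separate family of very large GTPases, also induced by interferons, whose role is less well known. Signals from the interferon receptors reach promoters through GAS elements, used by interferon-gamma, and through ISRE elements, which interferon regulatory factors bind.

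Positions are given on the mouse genome build GRCm38. Irgm1 (ENSMUSG00000046879, chr11:48861968-48871683) and Tgtp1 (ENSMUSG00000078922, chr11:48985327-48994172) are on the minus strand of one cluster on chromosome 11. Igtp (ENSMUSG00000078853, chr11:58199556-58207591) and Irgm2 (ENSMUSG00000069874, chr11:58199618-58222782) overlap on the plus strand of another cluster on that chromosome. Gvin1 (ENSMUSG00000045868) is at chr7:106156556-106215326, on the minus strand. The authors' counts are estimates, and how reads shared by similar genes were divided can be seen in part from the values. For Irgm1 and Iigp1 the counts were whole numbers in all 60 libraries, whereas those of Irgm2, Igtp and Gvin1 were not whole in any of the 60 and those of Tgtp1 in 58. Levels of these last 4 genes are therefore uncertain to the extent that reads were split with a neighbour or relative.

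The promoters are those of the 4 members with a RefSeq entry and of 2 relatives on chromosome 11. The relatives were picked because they share a pair of interferon elements at a fixed spacing with Irgm2, Igtp and Tgtp1. The sequences are the 100 bases before the RefSeq start, read 5′ to 3′ on the strand of the gene, from RefSeq on GRCm38.p6. Capitals mark matches to the GAS element (TTCNNNGAA) and to the ISRE (GAAA, any 2 bases, GAAA), searched on both strands. The positions are chr11:48871421-48871520 (minus) for Irgm1, chr11:58214877-58214976 (plus) for Irgm2, chr11:58199456-58199555 (plus) for Igtp, chr11:48992247-48992346 (minus) for Tgtp1, chr11:49064213-49064312 (minus) for Tgtp2 and chr11:48927183-48927282 (minus) for Gm12185.
Irgm1: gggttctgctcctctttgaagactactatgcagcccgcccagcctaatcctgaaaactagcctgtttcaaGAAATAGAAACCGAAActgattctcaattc
Irgm2: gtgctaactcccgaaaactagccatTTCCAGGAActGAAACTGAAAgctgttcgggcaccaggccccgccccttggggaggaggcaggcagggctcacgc
Igtp: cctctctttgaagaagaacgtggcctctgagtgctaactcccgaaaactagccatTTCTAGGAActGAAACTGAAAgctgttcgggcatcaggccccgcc
Tgtp1: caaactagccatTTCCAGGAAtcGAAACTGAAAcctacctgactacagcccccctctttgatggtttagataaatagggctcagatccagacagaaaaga
Tgtp2: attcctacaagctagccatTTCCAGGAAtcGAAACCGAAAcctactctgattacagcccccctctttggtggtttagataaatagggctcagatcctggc
Gm12185: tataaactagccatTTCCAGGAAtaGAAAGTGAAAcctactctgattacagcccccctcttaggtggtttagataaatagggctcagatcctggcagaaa

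In 5 of these 6 promoters, all but that of Irgm1, there was a GAS match followed after 2 bases by an ISRE match, and the spacing was the same in each. The joined motif (the GAS element, any 2 bases, the ISRE) was written down after these sequences had been read. It occurred in 5 of 32851 RefSeq promoter windows of 300 bases (0.0152%), which were these 5. An ISRE match, with or without the other element, was in 3.44% of all windows and a GAS match in 8.30%. The promoter of Irgm1 held 2 overlapping ISRE matches, between 30 and 15 bases before the start, and no GAS match in this window. A further relative on chromosome 11, Gm12250, not printed, held 2 ISRE matches on the other strand, from 91 and from 46 bases before the start. It held a GAS match from 61 bases before the start, without the joined motif. The promoters of Gm5431, 9930111J21Rik1, 9930111J21Rik2, Irgq and Gm1966, also not printed, held no GAS match. Of these, 9930111J21Rik1 held an ISRE match past the start and Gm1966 one from 163 bases before it. The count of 5 of 6 is therefore not a share of the family. A match is a description of letters in the reference build, not in each of the 8 strains, and does not show binding.

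The median library held 30.4 M reads (lowest 19.98 M, highest 69.2 M). Levels are counts-per-million (CPM) after normalisation, as mean ± SD over the libraries of a strain. Differences are log2 fold changes ± SE from a single edgeR quasi-likelihood model of the 8 strains, and a gene or pair was called at a Benjamini-Hochberg adjusted p under 0.05 over all 16165 genes tested. The 5 hepatocyte markers Alb, Apoa1, Ttr, Cyp2e1 and Hnf4a, which check the labelled tissue, were present in every strain, with summed levels of 19300.5 to 134822 CPM. Library 8 of NZO had the lowest of these sums, and its neutrophil markers (3 of 4 in the table) summed to 1258 CPM, against at most 9.55 CPM in any library of the other strains. Reads of the ribosomal RNA gene Rn18s-rs5 made up 6.05 to 16.0% of the counts in NZO and 0.84 to 9.48% in the other strains.

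All 6 members differed among the strains, which 89.8% of the genes tested also did, so that the count itself sets them apart little. What differed was the form of the pattern. Iigp1, Tgtp1 and Gvin1 each had almost no reads in 1 or more strains and many in others. Whether this reflects little RNA, or reads that were not aligned to GRCm38 or were assigned to a relative, was not tested. Irgm1, Irgm2 and Igtp were expressed in every library and varied by a few fold. Strain accounted for 96.6% of the variance of log2 CPM for Iigp1, 92.0% for Gvin1, 77.8% for Tgtp1, 67.2% for Irgm1, 64.9% for Irgm2 and 59.2% for Igtp, against a median of 49.3% over all genes tested. Per kilobase of exon, the highest strain means were 62.9 CPM for Iigp1 (PWK), 25.9 for Igtp (NZO), 25.04 for Irgm2 (PWK), 14.1 for Irgm1 (NZO), 5.12 for Gvin1 (B6) and 4.57 for Tgtp1 (NZO).

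**Figure D1:**
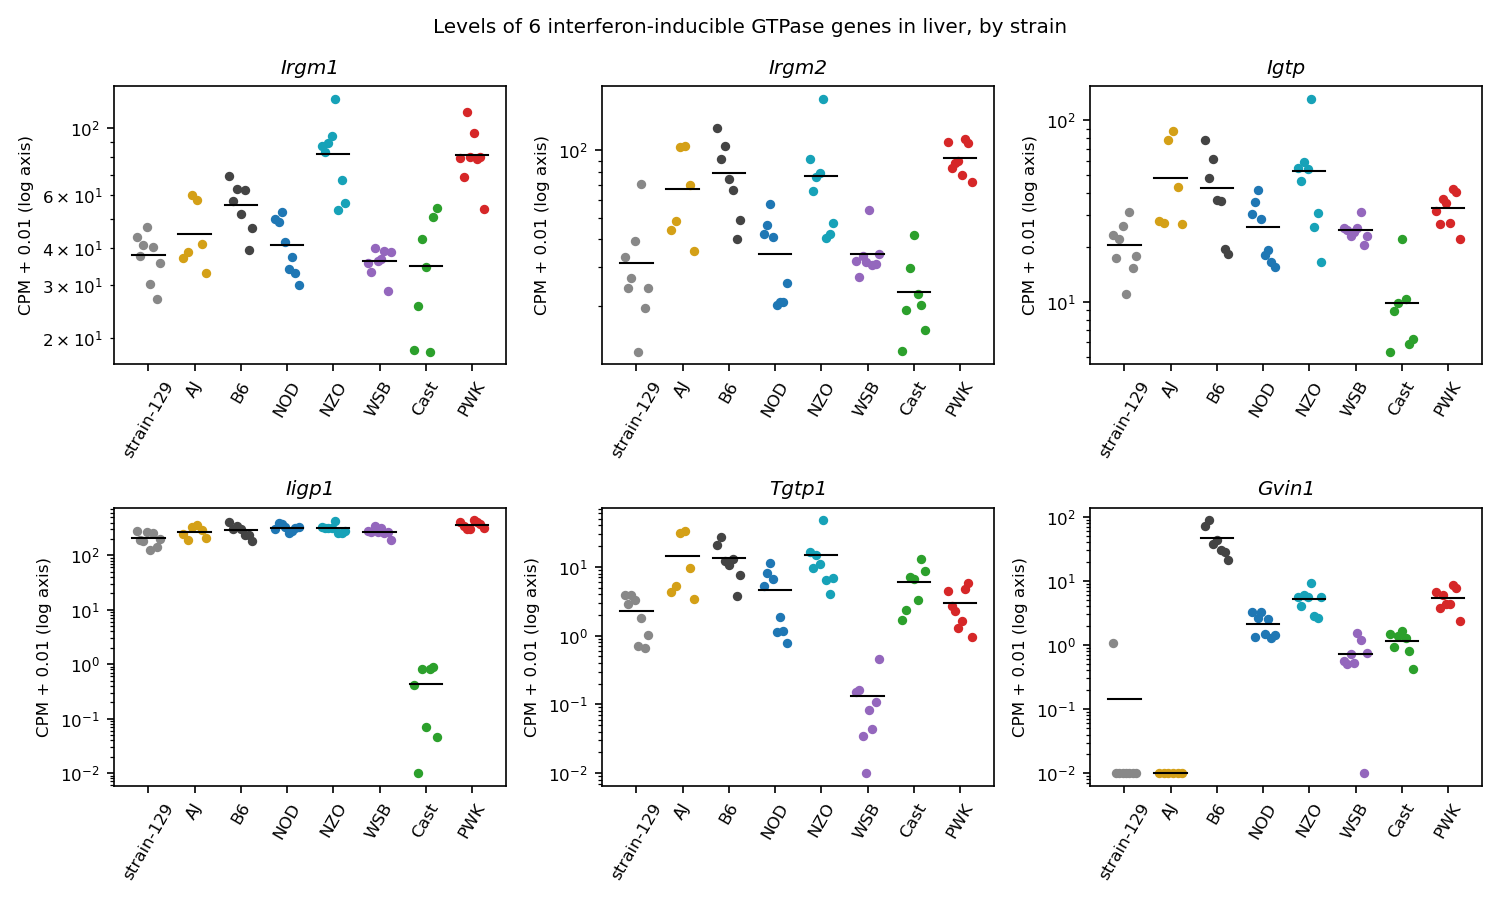
Level of each member in every library (points, n = 60) by strain, as CPM plus 0.01 on a log axis that differs between panels, with bars at the strain means. Irgm1, Irgm2 and Igtp shift by a few fold, whereas Iigp1 drops to 0.426 CPM in Cast, Tgtp1 to 0.121 CPM in WSB, and Gvin1 to 0 in AJ.

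Irgm1, the regulator required for control of several intracellular bacteria in mice, was highest in NZO and PWK. Mean levels were 82.1 ± 23.5 CPM in NZO, 81.3 ± 17.6 in PWK, 55.6 ± 10.5 in B6, 44.5 ± 11.4 in AJ, 40.8 ± 8.71 in NOD, 37.7 ± 6.62 in strain-129, 36.0 ± 3.68 in WSB and 34.8 ± 14.9 in Cast. The libraries ranged from 53.3 to 126 CPM in NZO (median 85.4), from 53.7 to 113 in PWK (median 79.7) and from 17.97 to 54.1 in Cast (median 34.3). Every NZO library lay above every library of WSB, NOD and strain-129, and the same held for PWK, so that these 6 pairs did not overlap. Over all genes and pairs, 13.5% did not overlap. Of the 28 pairs of strains, 15 were called for Irgm1, where 37.5% of all tests of a gene in a pair were called (14.4 to 59.0% in single pairs of strains). In the order of levels, only the step from PWK to B6 was called (log2 difference 0.55 ± 0.18, adjusted p = 0.0129). NZO and PWK differed by 0.01 ± 0.18 (adjusted p = 0.954). The 5 lowest strains, from AJ to Cast, did not differ in any pair beyond the threshold, with differences of 0.05 to 0.36. The 2 calls next to B6 rested on single libraries: NZO minus B6 (0.56 ± 0.18, adjusted p = 0.0206) was lost without library 7 of B6 or library 5 of NZO (highest adjusted p 0.0784), and B6 minus strain-129 (0.56 ± 0.18, adjusted p = 0.0198) without library 1 of B6 or library 8 of strain-129 (highest adjusted p 0.0573).

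Irgm2, a second regulator, separated the strains into a higher and a lower set. Mean levels were 92.4 ± 15.2 CPM in PWK, 78.9 ± 30.8 in B6, 76.6 ± 42.3 in NZO, 67.5 ± 30.4 in AJ, 34.2 ± 14.2 in NOD, 34.2 ± 8.20 in WSB, 31.3 ± 17.8 in strain-129 and 23.1 ± 9.85 in Cast. Each of the 4 higher strains differed from each of the 4 lower ones, which made up the 16 pairs called. No pair within either set was called. PWK was the most even of the higher strains, with libraries from 72.0 to 112 CPM (median 88.8), and it alone did not overlap with NOD, WSB, strain-129 or Cast (highest 57.4, 53.8, 70.4 and 41.8 CPM). The step between the sets, AJ minus NOD, was 0.98 ± 0.30 (adjusted p = 0.0184), and it was not called without library 3 or library 4 of AJ (highest adjusted p 0.0753). PWK exceeded Cast by 2.00 ± 0.31 (adjusted p = 2.63e-07).

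Igtp, the third regulator, was lowest in Cast. Mean levels were 52.4 ± 35.5 CPM in NZO, 48.4 ± 27.5 in AJ, 42.6 ± 21.7 in B6, 32.8 ± 6.96 in PWK, 25.8 ± 9.68 in NOD, 24.8 ± 3.08 in WSB, 20.6 ± 6.43 in strain-129 and 9.85 ± 5.85 in Cast. Cast differed from all 7 other strains, by 1.06 ± 0.32 from strain-129 (adjusted p = 0.00495) to 2.41 ± 0.34 from NZO (adjusted p = 2.04e-08). Its libraries ran from 5.33 to 22.3 CPM (median 8.91), and the highest, library 5, was within the range of 6 of the other strains, all but AJ (26.8 to 87.8 CPM). The other 8 of the 15 called pairs set NZO, AJ or B6 above NOD, WSB or strain-129, and B6 minus NOD was not called (0.72 ± 0.31, adjusted p = 0.0849). Without library 5 of NZO, at 132 CPM the highest of all, NZO minus NOD fell from 1.02 to 0.67 and was no longer called (adjusted p = 0.0729). A further 4 calls of Igtp, AJ minus NOD, AJ minus WSB, B6 minus WSB and B6 minus strain-129, were each lost when single libraries were left out, among them libraries 3 and 4 of AJ for the AJ pairs and library 1 of B6 for the B6 pairs. The highest adjusted p-values were then 0.212, 0.104, 0.163 and 0.0589.

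PWK stood high for Irgm2 and in the middle for Igtp, although these 2 genes overlap in the annotation. Igtp took 26.1 ± 2.38% of the reads of both genes in PWK (range 22.7 to 29.6) and 29.1 ± 4.16% in Cast (range 22.5 to 34.8). It took 34.0 ± 3.49% in B6, 39.2 ± 5.80% in NZO, 40.8 ± 3.67% in AJ, 41.6 ± 4.91% in strain-129, 42.5 ± 5.55% in WSB and 43.3 ± 3.28% in NOD. The mean share in PWK was lower than in each of these 6 strains (two-sided exact permutation tests, adjusted over 84 tests of 3 shares, p from 0.000544 to 0.00174). Library 8 of NZO (25.9%) and library 8 of B6 (27.4%) were within the PWK range. PWK and Cast differed by less than the threshold (exact permutation test, adjusted p = 0.143). Summed over both genes, levels were 128 ± 76.3 CPM in NZO, 126 ± 21.6 in PWK, 121 ± 52.4 in B6, 115 ± 56.9 in AJ and at most 59.7 ± 23.6 (NOD) in the others, down to 33.4 ± 15.8 in Cast. For the sum, strain-129 minus Cast was not called (0.64, adjusted p = 0.0636).

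Iigp1 (ENSMUSG00000054072, chr18:60376029-60392627, plus strand), an effector that coats the vacuole of Toxoplasma gondii, was the most abundant member per kilobase in every strain except Cast, where few reads were assigned to it. Cast had 0.426 ± 0.400 CPM, with 0 to 31 reads per library, 96 reads over its 7 libraries and a median of 0.400 CPM. Mean levels elsewhere were 366 ± 54.2 CPM in PWK, 324 ± 43.2 in NOD, 314 ± 54.7 in NZO, 288 ± 76.8 in B6, 274 ± 43.5 in WSB, 272 ± 66.9 in AJ and 205 ± 57.2 in strain-129. The lowest library outside Cast, one of strain-129, had 125 CPM, against a highest of 0.879 CPM in Cast. The difference from Cast was between 8.89 ± 0.40 (strain-129, adjusted p = 2.06e-26) and 9.72 ± 0.41 (PWK, adjusted p = 2.09e-27). Among the other 7 strains a single pair was called, PWK minus strain-129 (0.84 ± 0.26, adjusted p = 0.00796), and those libraries did not overlap (306 to 444 against 125 to 275 CPM). With Cast left out of the model, a choice made after seeing these values, 7 of the 21 remaining pairs were called.

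Tgtp1, an effector that binds vacuole membranes among the earliest of its family, had few reads in WSB and not in Cast. WSB had 0.121 ± 0.141 CPM, with 0 to 15 reads per library and 29 reads over 8 libraries. Mean levels were 14.7 ± 14.1 CPM in NZO, 14.5 ± 13.9 in AJ, 13.6 ± 7.97 in B6, 6.08 ± 4.04 in Cast, 4.54 ± 3.95 in NOD, 2.97 ± 1.80 in PWK and 2.26 ± 1.38 in strain-129. The SD was close to the mean in NZO and AJ, since library 5 of NZO (47.8 CPM) and libraries 3 and 4 of AJ (31.4 and 33.0 CPM) were far above the other libraries of their strain (medians 10.4 and 7.47). Every strain exceeded WSB without overlap, by 4.17 ± 0.76 (strain-129, adjusted p = 1.68e-05) to 6.87 ± 0.76 (NZO, adjusted p = 8.08e-11). Of the 29 WSB reads, 15 were in library 9, and NZO minus WSB was 7.62 without it. It was 4.15 with the reads of Tgtp1 and its relative Tgtp2 summed and 3.37 on the deposited log2 values. The other 11 of the 18 called pairs set NZO, AJ or B6 above PWK, strain-129 or NOD, with NZO also above Cast and Cast above strain-129. Of these, 5 were not called when 1 library was left out: NZO minus Cast, NZO minus NOD, AJ minus NOD, B6 minus NOD and Cast minus strain-129. NZO minus Cast was lost without any one of 8 libraries, 5 of Cast and 3 of NZO. Library 5 of NZO decided both NZO pairs (adjusted p = 0.275 and 0.0979 without it), and the highest adjusted p of the other 3 was 0.165, 0.0888 and 0.0959.

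The near relative Tgtp2 followed another order than Tgtp1, and the share of reads assigned to each differed by strain. Tgtp2 (chr11:49057194-49064206, minus strand) was at 9.06 ± 5.70 CPM in PWK, 8.98 ± 9.26 in NZO, 8.58 ± 3.22 in B6, 6.04 ± 3.83 in AJ, 3.31 ± 1.98 in NOD, 2.58 ± 1.31 in strain-129 and 1.19 ± 0.154 in WSB, with at most 1 read in any Cast library. Without library 5 of NZO the NZO mean was 5.94 CPM, below B6 and AJ. Of the reads of both genes, Tgtp1 took 99.8 ± 0.219% in Cast, 64.5 ± 11.5% in AJ, 64.1 ± 6.15% in NZO, 58.8 ± 7.83% in B6, 50.1 ± 16.7% in NOD, 43.6 ± 12.0% in strain-129, 25.3 ± 5.53% in PWK and 8.16 ± 8.10% in WSB. No Cast library fell below 99.5% and no other library exceeded 77.3%. Cast differed from B6 by 41.0 percentage points (exact permutation test, adjusted p = 0.00126) and PWK from B6 by 33.5 points in the other direction (exact permutation test, adjusted p = 0.000544). Summed over both genes, WSB was still the lowest strain at 1.32 ± 0.232 CPM, Cast had 6.16 ± 4.10 and NZO 23.4 ± 23.0. Neither the share nor the sum includes Gm12185, which overlaps Tgtp1 on the same strand. Gm12185 was at 25.6 CPM in Cast and had 1 read over all WSB libraries. Whether its reads bear on the Tgtp1 values was not tested. With summed reads, 4 calls of Tgtp1 were not made, those of NZO, AJ and B6 against PWK (adjusted p = 0.0767, 0.224 and 0.128) and of Cast against strain-129 (0.568).

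**Figure D2:**
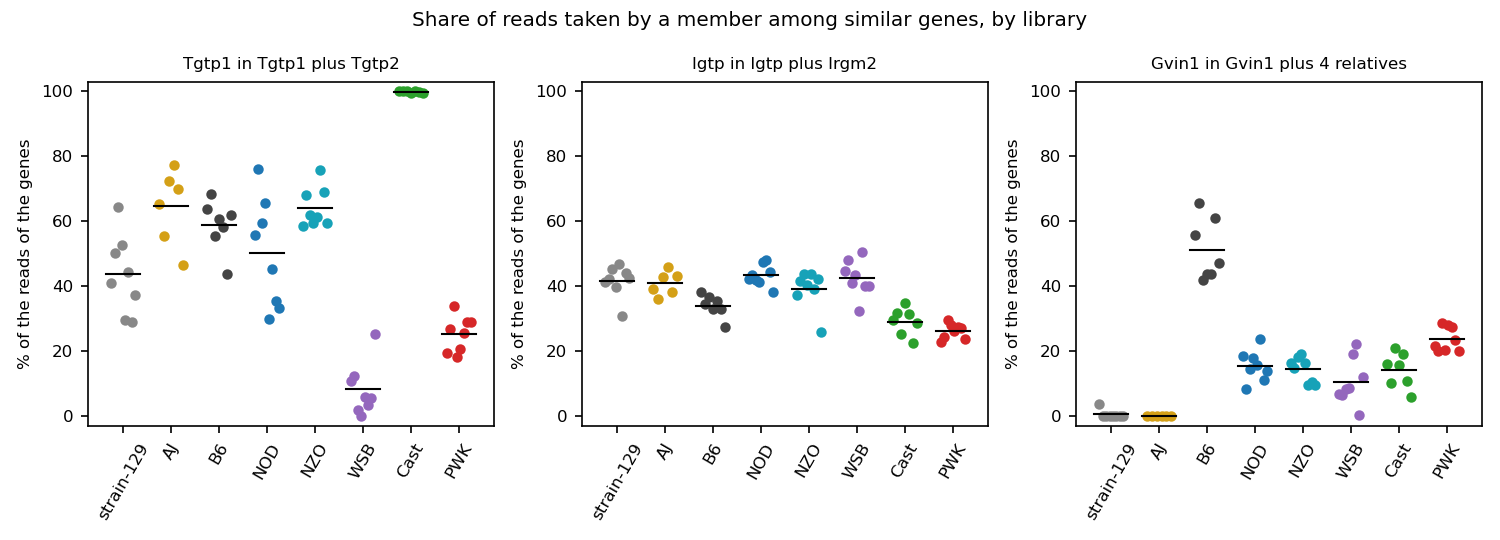
Share of the reads of similar or overlapping genes that was assigned to the member, in percent, for every library (points) by strain, with bars at the strain means. Tgtp1 takes nearly all reads of its pair in Cast and 8.16% in WSB, the Igtp share is lowest in PWK and Cast, and Gvin1 has its largest share in B6.

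Gvin1 had the widest range of the members. Mean levels were 46.1 ± 25.1 CPM in B6, 5.48 ± 2.08 in PWK, 5.20 ± 2.17 in NZO, 2.14 ± 0.853 in NOD, 1.13 ± 0.432 in Cast and 0.714 ± 0.458 in WSB. In AJ the estimated count rounded to 0 in every library, and in strain-129 it rounded to 0 in 7 of 8 libraries and was 30 reads (1.06 CPM) in library 1. The libraries of B6, from 20.9 to 89.1 CPM (median 37.8), lay above every library of the other strains, the next being one of NZO at 9.40 CPM. B6 exceeded PWK by 3.07 ± 0.44 (adjusted p = 1.13e-07). Against AJ, 3 reads over the 6 libraries would be 0.0153 CPM. The level assigned to Gvin1 was at least 3010-fold above this in B6 and at least 46.6-fold in WSB. These bounds cover counting error only, not reads assigned to relatives, so they do not bound the RNA level. With the reads of Gm4070, Gm8995, Gm8979 and Gm1966 added, B6 minus AJ was 1.46, and AJ was above WSB by 2.18. Of the 28 pairs 24 were called, and 18 did not overlap. The pairs not called were PWK minus NZO (0.07 ± 0.41, adjusted p = 0.894), NOD minus Cast (0.92 ± 0.47, adjusted p = 0.0964), Cast minus WSB (0.65 ± 0.50, adjusted p = 0.294) and strain-129 against AJ (adjusted p = 0.0503). NZO minus NOD (1.27 ± 0.43, adjusted p = 0.0179) was not called without library 5 of NZO (adjusted p = 0.0506), nor with DESeq2 (adjusted p = 0.0592). Folds against strain-129 rest on the 30 reads of its library 1, without which that strain was at 0 in every library.

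**Figure D3:**
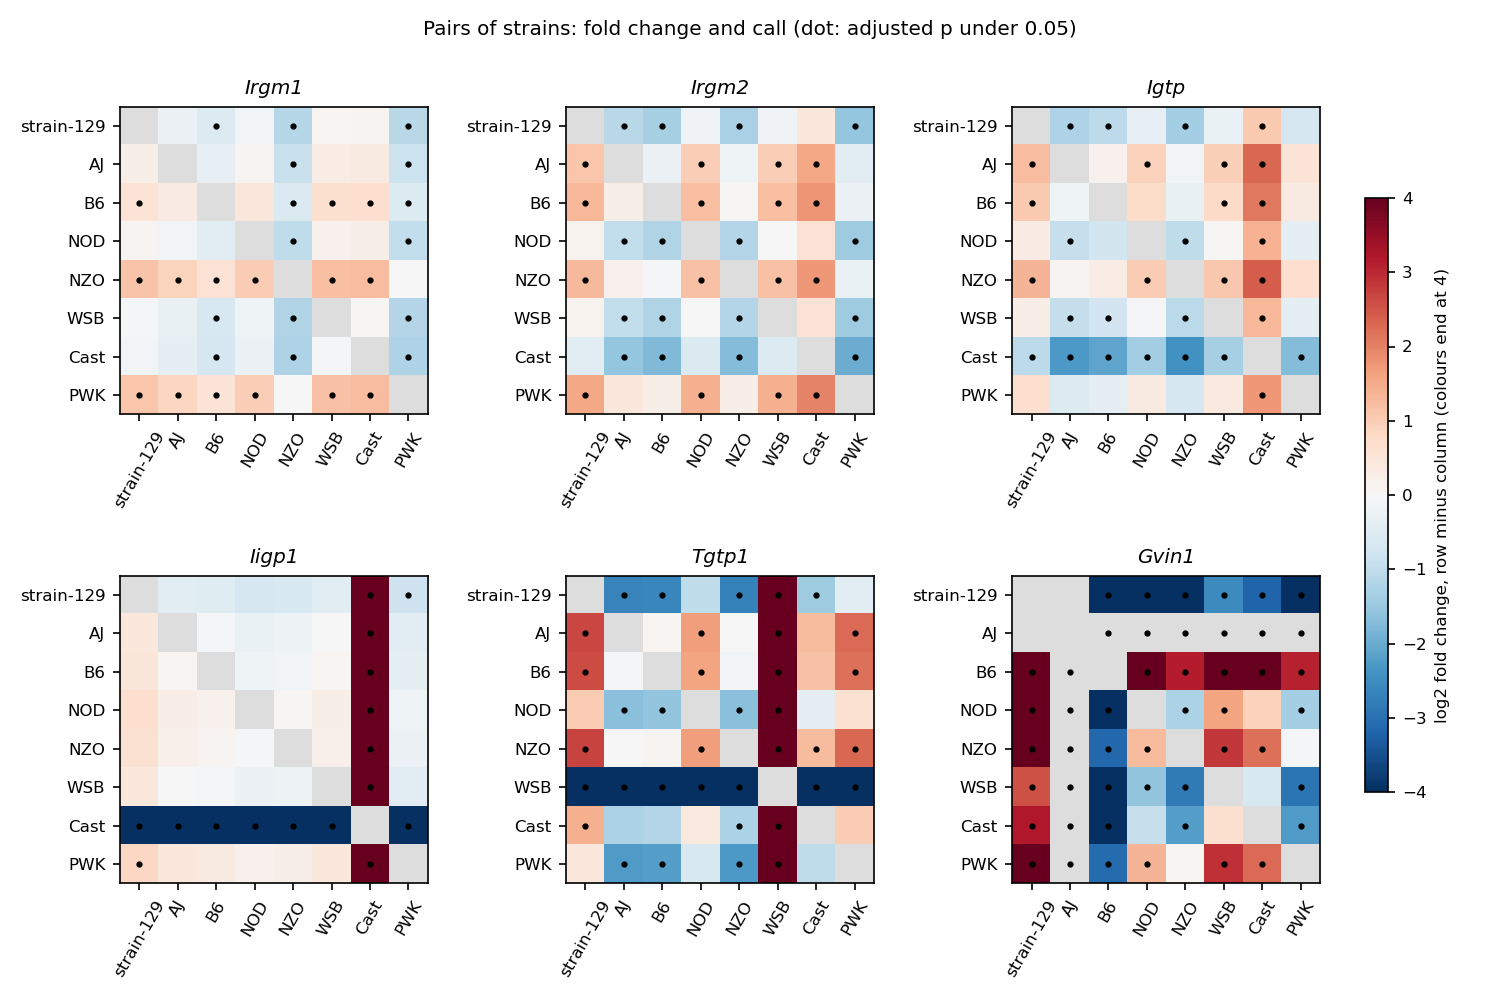
Log2 difference between every pair of strains for each member, row strain minus column strain (red higher, blue lower, colours end at 4), with a dot where the pair was called. The blue rows of Cast for Iigp1 and of WSB for Tgtp1 mark the strains with few reads assigned to these genes, and grey off the diagonal marks pairs of Gvin1 between AJ and the other strains, for which no fold is given.

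The other immunity-related GTPases of the same clusters had strain orders that in part resembled and in part departed from those of the members. Of 18 names listed, 10 were in the table, and all 10 differed among strains, as did 89.8% of all genes. On chromosome 18, beside Iigp1, Gm4951 was at 97.0 CPM in WSB, 92.0 in AJ and 89.1 in B6, with 1.53 in Cast, and NZO (6.92) was above Cast by 2.20 ± 0.25 (adjusted p = 7.68e-11). F830016B08Rik, next to Iigp1, was at 20.7 to 29.5 CPM in AJ, NOD, B6 and WSB, at 1.31 to 2.38 in strain-129, NZO and PWK, and at 0.0860 in Cast. Gm4841 had its highest mean in NZO (12.2 ± 24.0 CPM, from 0.531 to 71.4, and 3.79 CPM without library 5) and at most 2.06 CPM elsewhere, with 0.339 in Cast and 0.0672 in PWK. Cast was thus the lowest strain for 3 of these 4 genes of the cluster.

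In the cluster of Irgm1 and Tgtp1, each listed gene was lowest in Cast or WSB, and some genes were also low in PWK. 9930111J21Rik1 had no read in Cast and 0.173 CPM in PWK, against 1.21 to 3.62 in the other strains. The level of 9930111J21Rik2 was 0.110 CPM in Cast, 0.332 in PWK, 1.76 in WSB and 6.14 to 11.8 elsewhere. Gm12185, which overlaps Tgtp1 on the same strand, was highest in Cast (25.6 ± 28.7 CPM, from 3.73 to 83.0, and 16.1 without library 7), exceeding PWK (4.60 ± 2.49) by 2.47 ± 0.45 (adjusted p = 7.39e-06), and had 1 read over all WSB libraries. Gm5431 was also highest in Cast (3.15 CPM) and lowest in WSB (0.0934 CPM). In the cluster of Igtp and Irgm2, Gm12250 (Irgb10, an effector that acts with guanylate-binding proteins on bacterial membranes, annotated in GENCODE as a processed pseudogene) was at 5.11 CPM in NZO and 0.175 in Cast. Cast was below WSB, the next lowest, by 2.29 ± 0.49 (adjusted p = 0.000116). Irgq, which lies apart from the clusters on chromosome 7, ran from 19.0 CPM in AJ to 32.0 in PWK, and no step between neighbours in its order was called.

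The relatives of Gvin1 on chromosome 7 followed it in part. Of the 7 names listed, 4 were in the table and all 4 differed among strains, against 89.8% of all genes. Gm8979 and Gm1966, annotated as pseudogenes, were at 0.00495 and 0.0830 CPM in AJ and at 0.00440 and 0.0482 in strain-129, the strains where Gvin1 was at or near 0. Gm1966 was highest in B6 (6.87 CPM), as was Gvin1, whereas Gm8979 was highest in PWK (1.27 CPM) and at 0.290 in B6. Gm4070 and Gm8995 were well expressed in AJ (20.6 and 11.3 CPM) and in strain-129 (10.02 and 6.48 CPM). Gvin1 took 51.2 ± 9.47% of the reads of these 5 genes in B6 and 23.6 ± 3.70% in PWK (exact permutation test, adjusted p = 0.000544). Summed over the 5 genes, levels were 87.8 ± 36.9 CPM in B6, 36.3 ± 13.4 in NZO, 31.9 ± 14.5 in AJ, 23.1 ± 7.87 in PWK, 16.7 ± 5.95 in strain-129, 13.9 ± 3.82 in NOD, 8.11 ± 1.59 in Cast and 7.02 ± 1.33 in WSB. AJ and strain-129, at the bottom for Gvin1, stood in the middle for the sum. For the sum strain-129 was above Cast and WSB (differences of Cast and WSB from it -1.04 and -1.25, adjusted p = 0.000442 and 4.7e-05), the reverse of their order for Gvin1 itself.

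**Figure D4:**
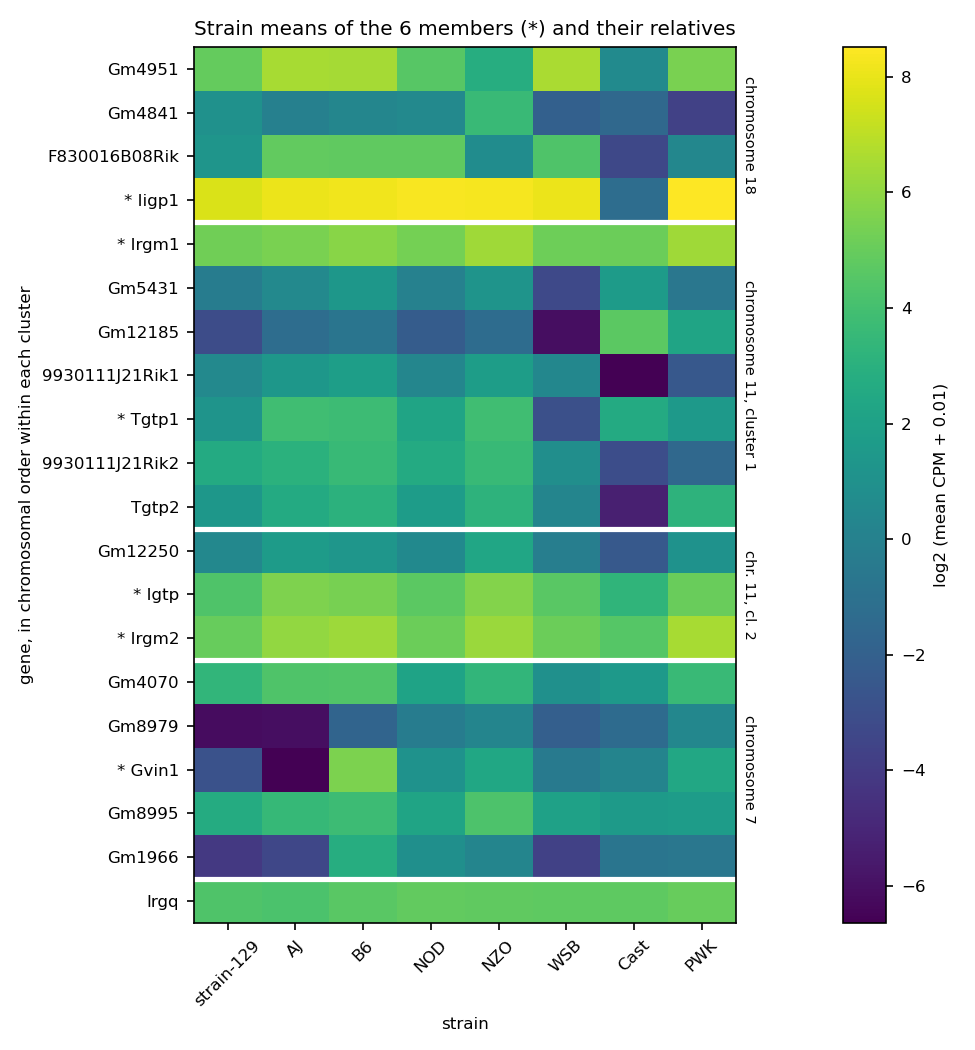
Mean level of the 6 members (marked with an asterisk) and of 14 relatives in each strain, as log2 of mean CPM plus 0.01, in chromosomal order within each cluster, with white lines between clusters and Irgq last. Dark cells mark levels near 0: AJ and strain-129 are both dark on Gvin1, Gm8979 and Gm1966, Cast is dark on 9930111J21Rik1 and Tgtp2, and WSB on Gm12185 and Gm1966.

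Libraries of 1 strain also differed from each other, and the members varied together across them. The deviations of log2 CPM from the strain mean were correlated over 60 libraries, with p-values from 100000 permutations within strains adjusted over 15 pairs of members. They share the library, so its makeup and normalisation act on both genes of a pair. Igtp and Irgm2 had r = 0.90 (rho = 0.91, permutation test, both with p = 1e-05, the smallest that these permutations can give, adjusted p = 2.5e-05 and 2.14e-05), and r = 0.89 without the 2 libraries farthest from the median. Their shared reads bear on this value. Irgm1 and Tgtp1, which do not overlap, had r = 0.73 (rho = 0.72, permutation test, the same p and adjusted p-values), and r = 0.74 without the 2 farthest libraries. Within single strains r for that pair ran from -0.11 in WSB, where Tgtp1 is near 0, to 0.99. For Irgm2 with Tgtp1 r was 0.72 (rho = 0.75), for Igtp with Tgtp1 0.68 (rho = 0.69), for Irgm1 with Irgm2 0.62 (rho = 0.69) and for Irgm1 with Igtp 0.61 (rho = 0.67), with the same permutation p-values.

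By Pearson's r on log2 CPM, Iigp1 and Gvin1 had lower values with the other members. Gvin1 had r between 0.24 and 0.38 with the other 5, and Iigp1 between 0.17 and 0.33 with the other 5, in which the few reads of Cast give its libraries large deviations on the log scale. In all, 13 of the 15 pairs were called by Pearson's r, and the exceptions were Iigp1 with Irgm1 (r = 0.17, permutation test, adjusted p = 0.492) and Iigp1 with Igtp (r = 0.22, permutation test, adjusted p = 0.178). No share over other pairs of genes is given, so this count alone does not set the members apart. On other scales Iigp1 was closer to them: its rho with the other 5 was 0.39 to 0.61 and its r on the deposited log2 values 0.39 to 0.62. By rank both exceptions were called (rho = 0.43 and 0.50, permutation tests, adjusted p = 0.00511 and 0.000345). When a slope on log2 Xist, the noncoding RNA that coats an inactive X, was also removed, 7 pairs were called, 6 of them among Irgm1, Irgm2, Igtp and Tgtp1 and the other Igtp with Gvin1. Log2 Xist was not graded, and lay from 0.255 to 3.31 in some libraries and from 9.34 to 10.5 in the rest. Every strain held libraries of both groups, so strain means and within-strain deviations mix them. In the edgeR model Tgtp1 rose by 0.11 ± 0.03 for each doubling of Xist (adjusted p = 0.00595), or 0.91 over 8 doublings. It was the only one of the 6 members called, where 35.3% of all genes were called. Slopes of the other 5 were 0.02 to 0.05 (adjusted p from 0.122 to 0.214).

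Deviations of the members were also set beside those of Irf1, an interferon-induced transcription factor, with p-values adjusted over a family of 54 correlations with markers and regulators. Tgtp1 had r = 0.54 with Irf1 (rho = 0.53, permutation test, adjusted p = 0.00027 for r), and Irgm1 had r = 0.52 (rho = 0.53, permutation test, adjusted p = 0.00132). For Irgm2 r was 0.39, for Igtp 0.38 and for Gvin1 0.35, all called (permutation tests, highest adjusted p 0.0222). Without the 2 farthest libraries these 5 r were 0.49, 0.52, 0.46, 0.28 and 0.33. With the Xist slope removed, Irgm1 was still called (r = 0.47, permutation test, adjusted p = 0.00722), and Tgtp1, Irgm2, Igtp and Gvin1 were not (r = 0.39, 0.27, 0.25 and 0.24, permutation tests, adjusted p = 0.0558, 0.149, 0.181 and 0.153). Iigp1 was not called by r (0.31, permutation test, adjusted p = 0.124) and was by rank (rho = 0.45, permutation test, adjusted p = 0.003645).

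**Figure D5:**
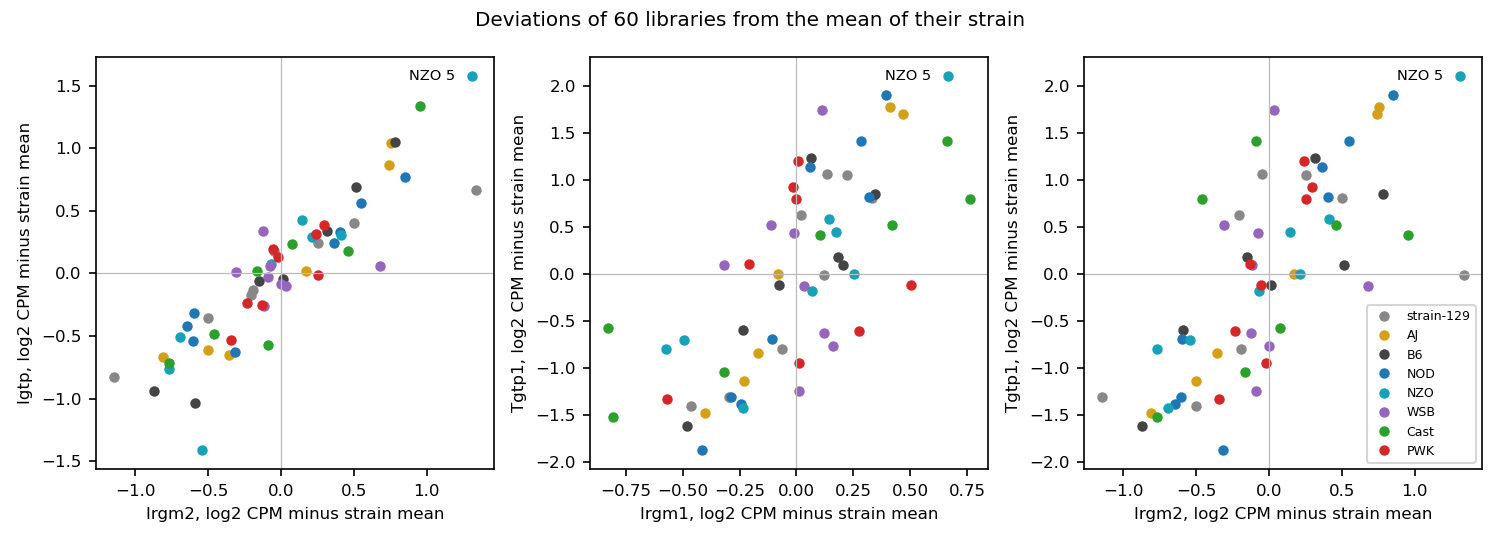
Deviation of each of 60 libraries from its strain mean, in log2 CPM, for Irgm2 and Igtp (left, r = 0.90), Irgm1 and Tgtp1 (middle, r = 0.73) and Irgm2 and Tgtp1 (right, r = 0.72), coloured by strain. Points of most strains spread along the diagonal, WSB points do so less, and library 5 of NZO is at the upper right in each panel.

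Markers of immune cells moved with some members. Over the 60 libraries, the summed level of 11 Kupffer cell and macrophage markers had r = 0.54 with Tgtp1, 0.46 with Irgm2, 0.39 with Irgm1, 0.38 with Iigp1 and 0.34 with Gvin1, all called (permutation tests, adjusted p from 0.000617 to 0.0186), and 0.32 with Igtp (adjusted p = 0.0740). By rank Igtp was called as well (rho = 0.46, permutation test, adjusted p = 0.00364). Its r was 0.45 without libraries 5 and 8 of NZO, the 2 farthest. With the Xist slope removed, the call of Iigp1 held (r = 0.34, permutation test, adjusted p = 0.00603). Those of Tgtp1, Irgm2, Irgm1 and Gvin1 were lost (permutation tests, adjusted p = 0.0636, 0.0706, 0.0872 and 0.163). Their r were then 0.37, 0.35, 0.32 and 0.23, so Tgtp1 and Irgm2 kept an r as large as that of Iigp1. For 5 dendritic cell markers r was 0.64 with Tgtp1, 0.47 with Irgm2, 0.41 with Irgm1 and 0.35 with Gvin1 (permutation tests, adjusted p = 0.000108, 0.00389, 0.00972 and 0.0277). Igtp (r = 0.30) and Iigp1 (r = 0.06) were not called with them by r. By rank Igtp was called (rho = 0.41, permutation test, adjusted p = 0.00718) and Iigp1 was not. Without libraries 5 and 8 of NZO, r of Igtp was 0.44. With the Xist slope removed, the call of Tgtp1 held (r = 0.54). Those of Irgm2, Irgm1 and Gvin1 were lost (r = 0.38, 0.34 and 0.26, permutation tests, adjusted p = 0.0561, 0.0697 and 0.109). The neutrophil, endothelial and hepatocyte sums were not called with any member by r. B6 and NZO, both among the 3 highest strains for Irgm1, Irgm2, Igtp, Tgtp1 and Gvin1, had the highest median Kupffer and macrophage sums (656 and 491 CPM, ranges 359 to 922 and 272 to 1112), against 234 to 328 CPM in the other strains. Other strains departed from this. PWK, highest for Irgm2 and Iigp1 and next to highest for Irgm1 and Gvin1, had a median of 328 CPM. AJ, next to highest for Igtp and Tgtp1, had 309 CPM, and NOD, next to highest for Iigp1, had 257 CPM. The sum of 10 T and NK cell markers was low throughout, with strain medians of 1.73 to 5.43 CPM, and Nkg7 was at 0 in every Cast library. That sum had r = 0.46 with Irgm1 (permutation test, adjusted p = 0.0137, and 0.00722 with the Xist slope removed). The sum of 4 B cell markers had r = 0.43 with Irgm1 and 0.40 with Tgtp1 (permutation tests, adjusted p = 0.0304 and 0.0101). Both calls were lost with the Xist slope removed (r = 0.37 and 0.22, permutation tests, adjusted p = 0.149 and 0.374). The part of these cells, or of Rn18s-rs5, in the differences between strains was not tested.

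Library 5 of NZO was the highest NZO library for all 6 members. It was above its strain mean by 2.11 (Tgtp1), 1.58 (Igtp), 1.31 (Irgm2), 0.96 (Gvin1), 0.66 (Irgm1) and 0.46 (Iigp1) on the log2 scale. Without it, 5 of the calls that set NZO apart from another strain were lost, Irgm1 NZO minus B6 (0.44, adjusted p = 0.0784) and the 4 given above for Igtp, Tgtp1 and Gvin1. The other NZO calls of the members held without this library. No call of a member was lost without library 8 of NZO.

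The genes around the members in interferon signalling were read in 2 pairs of strains that share no library, B6 against WSB and PWK against Cast, chosen after the members' values had been seen. B6 was called above WSB for 23.3% of all genes and below for 20.9%. Of 11 guanylate-binding proteins, which help immunity-related GTPases to attack vacuoles, 10 were higher in B6 and 1 was lower (median log2 difference 2.13, against 0.02 over all genes). The 14 type I interferon targets were all higher in B6 (median 2.14). Of 12 other interferon-gamma targets 7 were higher and 1 lower (median 1.14), and of 17 interferon receptors, kinases and transcription factors 10 were higher and 2 lower (median 0.48). Of 10 ATG8 proteins and their conjugation enzymes, which help to place these GTPases on vacuoles, 1 was higher and 4 were lower (median -0.06).

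In the second pair, Cast was called below PWK for 24% of all genes and above for 25.9%. Of the type I interferon targets 13 of 14 were lower in Cast and none higher (median log2 difference -1.73, against 0.01 over all genes), and of the guanylate-binding proteins 6 of 11 were lower and none higher (median -0.93). Of the other interferon-gamma targets 6 of 12 were lower (median -1.001), as were 8 of 17 receptors, kinases and transcription factors (median -0.53), with none higher in either list. Of the 10 other immunity-related GTPases 6 were lower in Cast and 3 higher (median -2.55). The ATG8 list went the other way, with 5 of 10 higher in Cast and none lower (median 0.26).

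Single genes of these lists, named by the smallest p among strains, had their own patterns. Ifngr2, a chain of the interferon-gamma receptor, ran from 7.54 CPM in Cast to 19.6 in B6, and Nlrc5, a regulator of MHC class I genes, from 6.77 in Cast to 27.8 in B6. Gbp10 was at 0.0577 CPM in Cast and 0.425 in PWK against 6.80 to 42.9 elsewhere, and Gbp11 was at 63.1 CPM in WSB and 59.4 in AJ against 2.20 to 6.37 elsewhere. Cd274, which encodes the checkpoint ligand PD-L1, ran from 0.414 CPM in Cast to 6.998 in NZO, and the chemokine gene Cxcl10 from 0.222 in Cast to 8.40 in NZO. Irf7, the factor that amplifies type I interferon, was at 35.3 to 37.7 CPM in PWK, B6 and NZO and at 3.40 to 13.4 in the others. Atg7, an enzyme of ATG8 conjugation, was at 18.5 CPM in PWK and 18.7 in Cast against 29.9 to 43.5 elsewhere.

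The genes whose strain means were most like those of each member were found by Pearson's r over the 8 strain means of log2 CPM, among 11675 named genes with at least 1 CPM. With 8 points, r is a description. For Iigp1 they were Impad1 (r = 1.00), Nek3 (1.00) and Rpl9-ps6 (1.00), all of them low in Cast alone, Impad1 at 10.3 CPM there against 49.3 to 56.0 elsewhere. For Irgm1 they were Eif2ak2 (0.96), which encodes the interferon-induced kinase PKR, Pfkfb4 (0.95) and Coro2a (0.95). For Irgm2 they were Akap5 (0.98), Gbp9 (0.97) and Irf9 (0.96), and for Igtp Nid2 (0.98), Trim21 (0.97) and Tmem229b (0.97). For Tgtp1 they were Entpd1 (0.98), Trim13 (0.96) and Clec4a1 (0.96), each lowest in WSB. For Gvin1 they were Trim25 (0.94), a ubiquitin ligase of the antiviral response, Slc25a4 (0.91) and Sec14l1 (0.90). Between members r was highest for Irgm1 with Irgm2 (0.88) and lowest for Iigp1 with Tgtp1 (-0.10).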

How the data were processed

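Liver RNA sequencing libraries of 8 strains were analysed. The authors deposited estimated counts (unnormalised; 19.96% were not whole numbers) and log2 values from a variance-stabilising transformation. Per the submitters' processing notes the build was GRCm38 and DESeq2 was used. Neither aligner, counting tool nor strand use is stated in the sources used here. The labels name 61 samples, of which 60 had a column. The sample numbered 5 of B6 had none, and 1 column of no sample was not used. Estimated counts, where the design had assumed whole counts, were rounded and analysed in R 4.3.3 with edgeR 4.0.16 (TMM, filterByExpr by strain, quasi-likelihood F test, two-sided), with Benjamini-Hochberg adjustment within each contrast. Each SE was obtained as |log2 fold change|/√F, which is unreliable for strains with almost no reads. No fold was given where every library of a strain had 3 reads or fewer, and a bound was computed from 3 reads over the group. Read numbers cover counting error only. Within-strain deviations were taken from log2 CPM (prior count 2), and marker sums an offset of 0.1 CPM. Gene models were from GENCODE M21 and promoters from RefSeq, both on GRCm38. Iigp1 and Gvin1 had no promoter entry. The edgeR script was tested on simulated data. Alternatives were DESeq2 1.42.0 (size factors, and as the tool), no filter on low counts, the deposited log2 values with limma 3.58.1, a replicate block, Xist as a covariate, removal of libraries with over 5% Rn18s-rs5, and leaving out each library. Added after seeing the data were sums over similar genes, fits without Cast or WSB, removal of the Xist slope, and the fit without library 5 of NZO. The text names all 6 members, all their listed relatives in the table, up to 4 genes of each other list with the smallest p, and 3 genes of similar pattern per member. The members and lists were chosen with earlier results of these data known. A gene that the rule for named genes would name, and its correlations, are not reported here.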

Additional observations from a re-analysis of the deposited data

Results flagged for a closer look

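For each member and strain, the highest and the lowest library were compared with the rest of their strain, and 9 of 47 groups had a library set apart by a gap that is large for the range of the group. The limit used would flag about 1 group in 20 if values were normally distributed and groups independent. The groups of different members share libraries and vary together, so the 9 cannot be set against that rate. Library 5 of NZO stood apart at the top for Iigp1 (427 CPM, next 336), Irgm2 (170 CPM, next 91.4), Igtp (132 CPM, next 59.3) and Tgtp1 (47.8 CPM, next 16.5). Library 7 of strain-129 was at 70.4 CPM for Irgm2 (next 39.4), library 6 of WSB at 53.8 CPM for Irgm2 (next 34.3), and library 5 of Cast at 22.3 CPM for Igtp (next 10.4). Near the limit of detection, library 9 of WSB was at 0.443 CPM for Tgtp1 (next 0.153), and library 1 of strain-129 at 1.06 CPM for Gvin1, where the other 7 libraries were at 0.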

How the results depend on the processing

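All 6 members were called among strains under every alternative run. Over the members, 96 pairs of strains were called, and 92 to 100 when single libraries were left out. For Iigp1, 14 pairs were called with limma on the deposited log2 values, against 8. Once Cast was left out, 7 of the 21 pairs without Cast were called, against 1. The shares of all genes called in these fits are not given. Without libraries of over 5% Rn18s-rs5, which leaves 28 libraries and none of NZO, 5 pairs of Irgm1, 6 of Igtp and 7 of Tgtp1 were called, against 9, 11 and 13 of the same 21 pairs, and fewer samples and Rn18s-rs5 cannot be told apart there. With the reads of Gvin1 and 4 relatives summed, the differences from strain-129 reversed, to -1.04 for Cast and -1.25 for WSB, and changed sign to -0.27 for NOD, where it was not called (adjusted p = 0.520). With the Xist slope removed, 7 pairs of members were called within strains, against 13. The cause of these changes was not tested. Tgtp1 NZO minus Cast (adjusted p = 0.0427) was also lost with DESeq2 (0.0520) and under the replicate block (0.147). Replicate numbers were not treated as pairs, since 7 of 60 libraries correlated best with their own number. Same-numbered libraries of different strains correlated from -0.43 to 0.53 (median 0.20, against -0.07 for different numbers), so the number carried some structure. Log2 Xist was high for numbers 1 to 4 and low for 5 to 9, except in libraries 3, 4, 6 and 7 of PWK and 9 of WSB. The part of Xist in that median was not tested. With the numbers as a replicate block, 97 pairs were called in place of 96. Differences of genes near 0 reads are limited by depth.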
